A study of Mus musculus with 15 samples.

Results

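The genes described here are the 46 that encode the enzymes of branched-chain amino acid oxidation (22 genes), the tricarboxylic acid (TCA) cycle (19 genes) and the entry of pyruvate into it (5 genes), out of 18194 genes with a probe set of a single gene symbol. They were chosen for their roles in these pathways, with earlier results of these data known. Each was read from its brightest probe set. All 46 lay above the filter on dim probe sets, a mean log2 intensity of 5.06, which 13174 genes passed, so no member was left out. The measurement was total RNA of interscapular brown adipose tissue on Affymetrix arrays, 15 samples in 3 groups of 5, from adult male wild-type C57BL/6N mice that all ate a high-fat diet. The control group (replicates 31 to 35) received a control that the labels do not name. The FGF21 group (36 to 40) received human FGF21, a hormone that signals through FGFR1 with the co-receptor KLB, at 1 mg/kg 2 times a day, 2 mg/kg/day in all. The aFGFR1/KLB group (41 to 45) received 1 intraperitoneal injection of the agonist antibody bFKB1 at 10 mg/kg, which binds and switches on the same receptor pair. Tissue was taken on day 5. Dosing differed in schedule and amount between the treatments, so the pair was not dose-matched.

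Brown adipocytes take up leucine, valine and isoleucine and burn them in mitochondria. Bcat2 or Bcat1 first removes the amino group. The branched-chain ketoacid dehydrogenase complex, built from Bckdha, Bckdhb, Dbt and Dld, then commits the carbon to oxidation; the kinase Bckdk switches this complex off by phosphorylation, and the phosphatase Ppm1k switches it back on. Separate branches carry the products on to acetyl-CoA and, through propionyl-CoA, to succinyl-CoA, where they join the TCA cycle. Pyruvate enters the cycle through pyruvate dehydrogenase (Pdha1, Pdhb, Dlat, Pdhx) or pyruvate carboxylase (Pcx).

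In brown adipose tissue of antibody-treated mice, 2 of the 46 genes passed the test against control, and both rose. They were Dbt, the E2 core of the ketoacid dehydrogenase complex, at 1.49-fold, and Mcee, the methylmalonyl-CoA epimerase of the propionate route, at 1.51-fold. With FGF21, 1 of 46 passed, Bcat2, the mitochondrial aminotransferase, which rose 1.36-fold. No gene of the TCA cycle or of pyruvate entry (0 of 24) passed in either comparison when read from its brightest probe set (2 were lower at an unadjusted p under 0.05 in each). The test was limma's moderated test over all 13174 genes, two-sided, with Benjamini-Hochberg adjusted p under 0.05. It called 5.18% of all genes with the antibody (682 genes; 2.69% were higher) and 6.32% with FGF21 (833 genes; 2.64% were higher). The members' shares were 4.35% and 2.17%, near or below the share over all genes, so the counts show nothing particular to the 46. The calls lay in the branched-chain list, with 2 of 22 (9.09%) for the antibody and 1 of 22 (4.55%) for FGF21. At an unadjusted p under 0.05, the antibody comparison held 5 members higher and 3 lower, against 9.31% and 10.1% of all genes. The FGF21 comparison held 4 higher and 3 lower, against 8.12% and 12.3%. Treated and control values did not overlap in 6 members with the antibody (5 higher and 1 lower) and in 1 with FGF21, against 8.61% and 5.25% of all genes in either direction (4.44% higher and 4.17% lower for the antibody, 2.37% higher for FGF21).

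**Figure D1:**
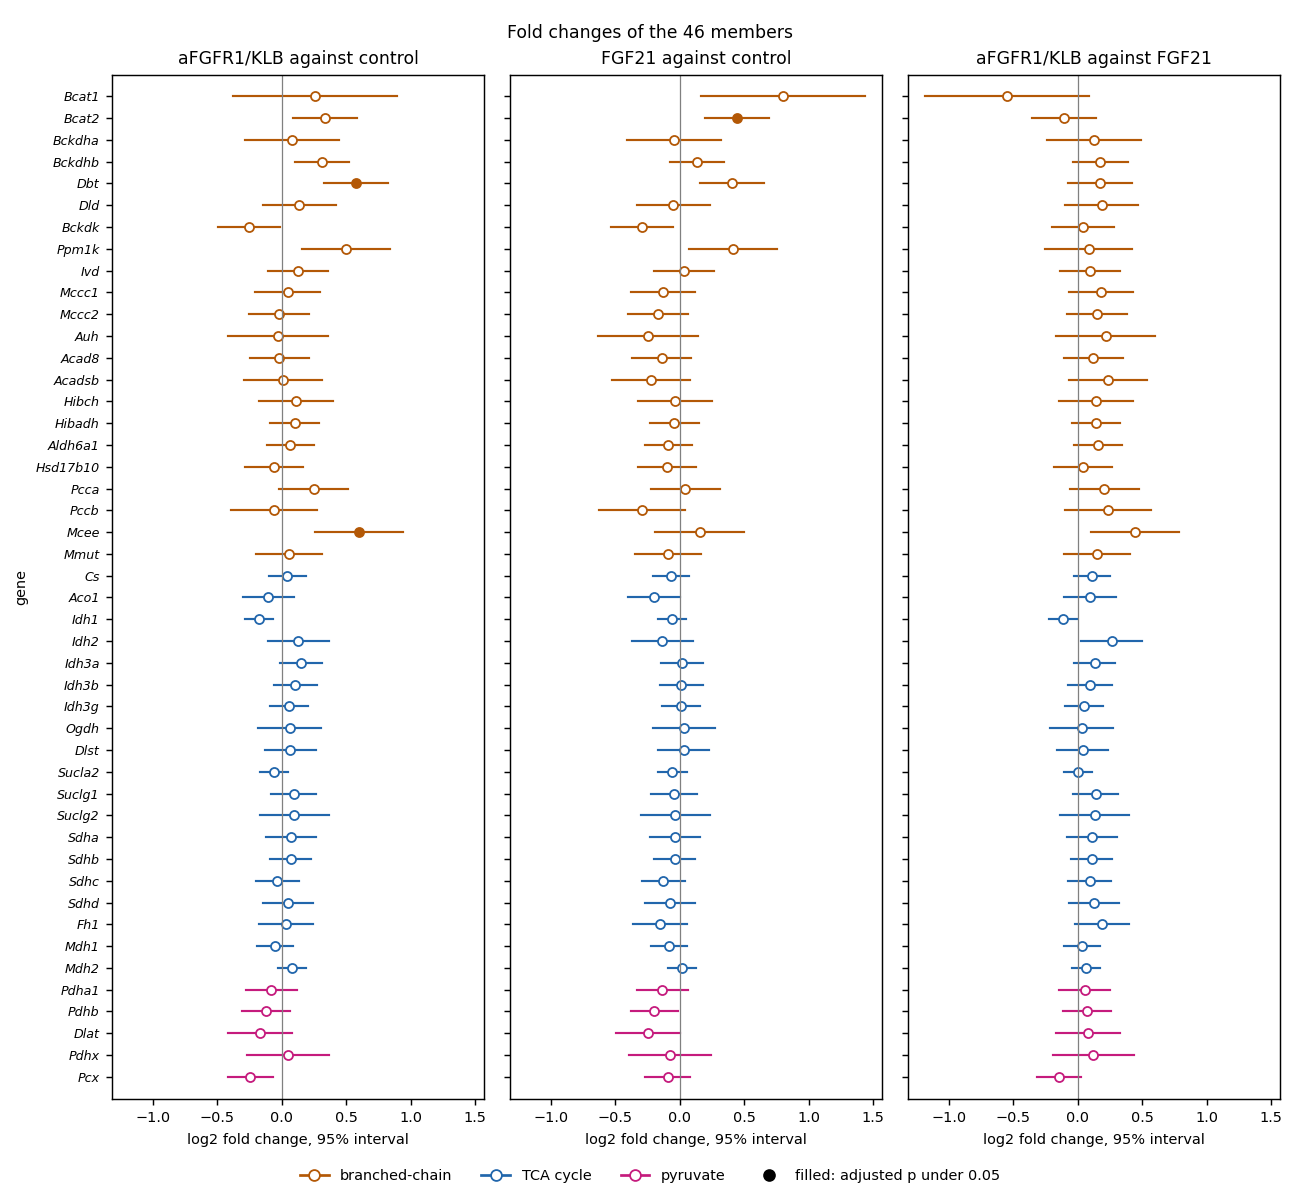
Log2 fold change (x axis) of each of the 46 genes (y axis) in the 3 comparisons, with the 95% interval of limma's moderated test; orange is branched-chain, blue the TCA cycle, magenta pyruvate, and filled points passed at adjusted p under 0.05. Only Dbt and Mcee are filled for the antibody against control and only Bcat2 for FGF21 against control, and the TCA points lie close to 0, between −0.18 and 0.15 for the antibody.

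Libraries control 34 and FGF21 36 stood apart from the rest of their groups. Control 34 had the lowest value of its group in 38 of the 46 members, with a median of −0.30 log2 against the other controls, and FGF21 36 the lowest in 43 of 46, with a median of −0.41. Over all genes the same medians were −0.07 and −0.05. Macrophage markers (14 of 14 measured) summed to an intensity of 42821 in control 34 against 6559 to 13578 in the other controls, and to 52336 in FGF21 36 against 7715 to 23379 in the others of its group; the antibody mice ranged from 10217 to 17047. Fibroblast and collagen markers (12 of 12) summed to 91772 in control 34 and 81551 in FGF21 36, the top 2 of the series. Skeletal muscle markers (13 of 13) ranged from 2353 to 142981, with medians of 20143 in controls, 7569 with FGF21 and 8325 with the antibody. The highest sums were in antibody mouse 45 (142981) and FGF21 36 (131050). Antibody mouse 45 had the lowest value of its group in 24 of the 46 members. None of the 13 muscle markers passed (limma, with 0 at an unadjusted p under 0.05 in each comparison). By direction, 0% of them were above 0 with FGF21 and 7.69% with the antibody, against 45.5% and 45.1% of all genes. Of the brown adipocyte markers, 9 of 10 had a probe set, and all 9 passed the filter. Their summed intensity was lowest in FGF21 36 (124607) and control 34 (126106), against 134242 to 142113 in the other mice. In tissue RNA, fewer cells of a type and less RNA per cell cannot be told apart. None of the 14 macrophage markers passed in any comparison (limma; 0 at an unadjusted p under 0.05). Of these 14, 92.9% were above 0 with FGF21 and 35.7% with the antibody. For the antibody against FGF21 0% were, against 53.7% of all genes. Of the 12 fibroblast and collagen markers, 75% were above 0 with FGF21, and 0% with the antibody against either control or FGF21. The lack of calls thus does not show that the groups had the same cell make-up. The part of muscle and connective tissue RNA in the results was not tested; a fit with the macrophage markers was made. Of the same 9 brown adipocyte markers, 3 passed with the antibody (33.3%): Ucp1 and Ppargc1a were higher while Prdm16, a transcription factor of the brown fat programme, was lower (−0.51, adjusted p = 0.0475). With FGF21 1 of 9 passed, Prdm16, at −0.87 (adjusted p = 0.00234), and 1 of 8 endothelial markers, Eng, at 0.40 (adjusted p = 0.00829). Control 34 and FGF21 36 were low for most members, and values without them stand beside the main results. The members' own values are part of what set these libraries apart. Leaving out a low control raises the control mean of a member, which favours lower calls. Fits without the 2 libraries therefore show how far results depend on them and are not separate support.

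**Figure D2:**
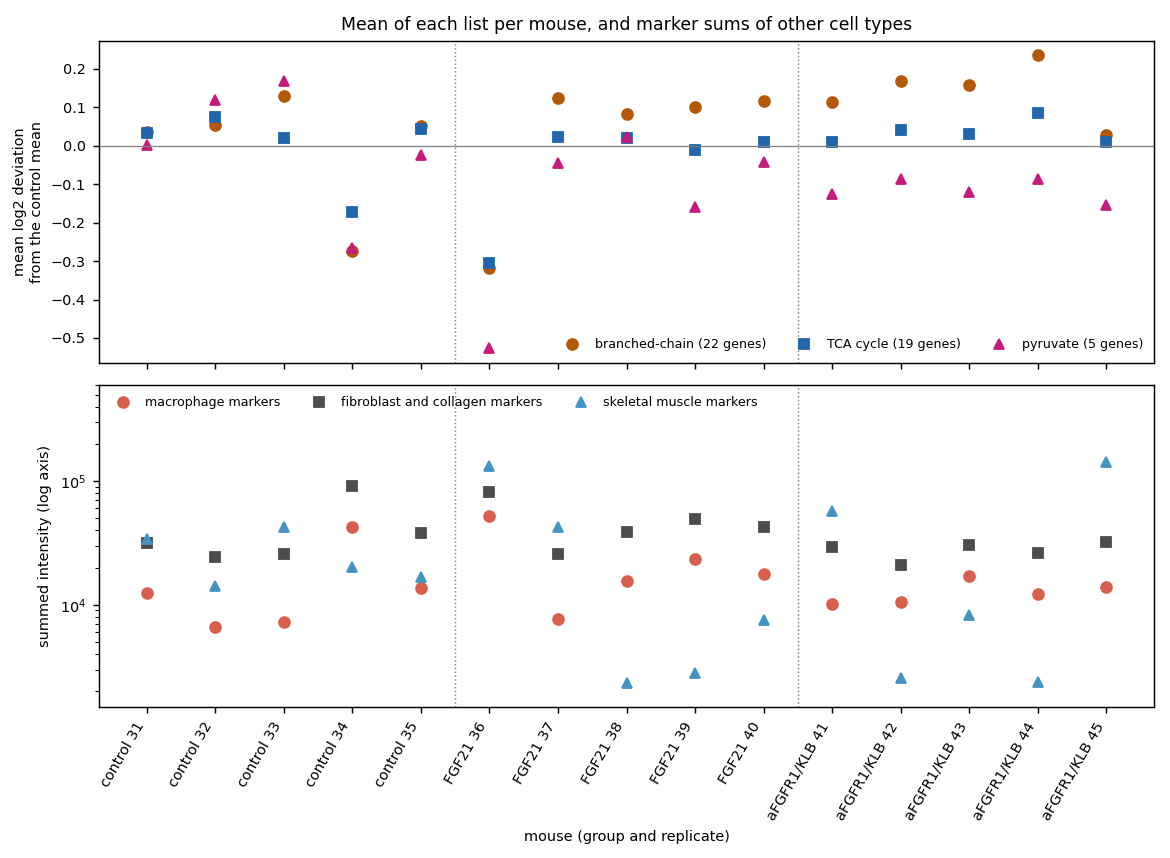
Upper panel, for each of the 15 mice (x axis), the mean log2 deviation from the control mean over the branched-chain (orange circles), TCA (blue squares) and pyruvate (magenta triangles) genes; lower panel, summed intensity of macrophage, fibroblast and collagen, and skeletal muscle markers on a log axis. Control 34 and FGF21 36 sit lowest in the upper panel, at −0.27 and −0.32 for the branched-chain mean, and highest for macrophage markers, at 42821 and 52336.

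Without those 2 libraries the antibody comparison called 9 of the 46 members (19.6%, against 12.4% of all genes). Dbt, Mcee, Bckdhb and Bcat2 were higher, where 5.41% of all genes were, and Bckdk, Pcx, Dlat, Pdhb and Idh1 were lower, where 6.97% were. The FGF21 comparison called 6 (13.0%, against 16.2% of all genes): Bcat2 and Dbt higher (6.77% of all genes), and Bckdk, Pccb, Idh2 and Pdhb lower (9.46%). With all 15 samples and the macrophage marker mean as a covariate, 7 members passed for the antibody, 5 higher and 2 lower (13.1% of all genes passed), and 2 for FGF21, both higher (10.3% of all genes).

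Bcat2 and Mcee are shown first by sequence, because they are called members whose start sites are in the reference. The windows hold the 250 bases before each RefSeq start and the first 30 from it, on GRCm38.p6, plus strand, with the bases from the start on in capitals. Bcat2 has 2 listed starts, at chr7:45569903-45570182 and chr7:45571029-45571308, and Mcee has 1, at chr7:64392372-64392651.
Bcat2, upstream start: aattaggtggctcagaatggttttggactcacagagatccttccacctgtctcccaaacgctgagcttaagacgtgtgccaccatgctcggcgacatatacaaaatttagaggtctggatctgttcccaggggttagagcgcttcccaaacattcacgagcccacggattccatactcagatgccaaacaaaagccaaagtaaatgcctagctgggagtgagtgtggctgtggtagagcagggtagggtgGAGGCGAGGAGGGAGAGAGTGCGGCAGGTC
Bcat2, downstream start: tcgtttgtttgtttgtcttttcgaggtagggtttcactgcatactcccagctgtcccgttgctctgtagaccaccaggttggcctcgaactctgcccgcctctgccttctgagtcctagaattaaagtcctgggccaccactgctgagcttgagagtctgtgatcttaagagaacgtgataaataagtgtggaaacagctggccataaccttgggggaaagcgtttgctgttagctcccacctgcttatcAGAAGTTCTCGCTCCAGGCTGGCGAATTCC
Mcee: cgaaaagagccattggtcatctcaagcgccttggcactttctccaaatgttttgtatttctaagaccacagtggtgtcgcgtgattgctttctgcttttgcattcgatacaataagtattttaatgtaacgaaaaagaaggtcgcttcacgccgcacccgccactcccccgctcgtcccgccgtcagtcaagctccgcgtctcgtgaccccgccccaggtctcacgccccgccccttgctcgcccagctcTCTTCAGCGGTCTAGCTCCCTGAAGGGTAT
The 300-base windows, reaching 50 bases past each start, were searched on both strands for 3 motifs of factors known for mitochondrial genes. These were the ERR half-site AAGGTCA, the NRF1 site (GCGC, then A and any base, then GCGC) and the ETS site CCGGAAG. No match to any of them lay in these 3 windows. Over the 54 windows of the 42 members in the reference, the ERR half-site was in 2 (3.7%, against 4.72% of all 32851 windows), the NRF1 site in 6 (11.1%, against 4.6%) and the ETS site in 6 (11.1%, against 8.86%). Sdha, the flavoprotein of succinate dehydrogenase, had 3 NRF1 matches, beginning at −98, −55 and −10 from its start, and no change in expression passed the test. A match is a description of the letters only.

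Transamination is the first, reversible step. Bcat2, the mitochondrial enzyme, read 7.31, 7.25, 7.23, 6.68 and 7.28 log2 in controls 31 to 35, 7.33, 7.65, 7.48, 7.83 and 7.67 in FGF21 36 to 40, and 7.45, 7.52, 7.59, 7.47 and 7.40 in antibody mice 41 to 45. Every treated mouse was above every control, and control 34 lay well below the other 4. The group means were 7.15 ± 0.26 (SD, n = 5) in controls, 7.59 ± 0.19 (n = 5) with FGF21 and 7.49 ± 0.07 (n = 5) with the antibody. The rise with FGF21 was 0.44 log2 (SE 0.12, limma adjusted p = 0.0369). With the antibody the difference was 0.34 (SE 0.12, adjusted p = 0.117) and did not pass. Without control 34 and FGF21 36 both passed, at 0.39 (adjusted p = 0.00245) and 0.22 (adjusted p = 0.0459). The FGF21 call held in 7 of the 15 fits that left out 1 library, with adjusted p from 0.0176 to 0.0944; it was lost without control 32 or 33, FGF21 37, 39 or 40, or antibody 41, 42 or 44. The Bcat2 call was also lost in a fit of the 10 control and FGF21 samples alone, with quantile normalisation repeated and with the ribosomal centring described at the end.

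Bcat1, the cytosolic aminotransferase, was dim, with values from 4.87 to 7.21. Its mean was 5.59 ± 0.55 (SD, n = 5) in controls, 6.39 ± 0.65 with FGF21 and 5.84 ± 0.26 with the antibody. The FGF21 difference of 0.80 (SE 0.30) had a limma adjusted p of 0.135. Without control 34 and FGF21 36 it was 0.78 (adjusted p = 0.0538). It passed in 1 of the 15 fits that left out 1 library, with adjusted p from 0.033 to 0.311. FGF21 36 (7.21) and control 34 (6.33), the libraries with the highest macrophage marker sums, were the highest of their groups for Bcat1, the opposite of most members, and with the macrophage mean as a covariate the difference was 0.49 (adjusted p = 0.0832). A second, dimmer Bcat1 probe set gave 0.11 with FGF21.

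The ketoacid dehydrogenase complex held the member with the smallest p. Dbt, its E2 acyltransferase, read 10.77, 10.64, 10.68, 10.49 and 10.84 in controls 31 to 35, 10.63, 11.25, 11.15, 11.15 and 11.27 in FGF21 36 to 40, and 11.27, 11.37, 11.26, 11.38 and 11.03 in antibody mice 41 to 45. All antibody values were above all controls, and 4 of 5 FGF21 values were too, FGF21 36 being the one among the controls. With the antibody the mean rose from 10.68 ± 0.13 to 11.26 ± 0.14 (SD, n = 5 each), a difference of 0.58 (SE 0.12, limma adjusted p = 0.0115). This call held in 15 of 15 fits that left out 1 library, with adjusted p from 0.00101 to 0.0362, and without both libraries it was 0.53 (adjusted p = 0.000851). With FGF21 the mean was 11.09 ± 0.26 (n = 5), a difference of 0.41 (SE 0.12) with adjusted p = 0.0502, just short of a call. Without control 34 and FGF21 36 it was 0.47 (adjusted p = 0.00144). With all 15 samples and the macrophage covariate it also passed, at 0.49 (adjusted p = 0.00535). The FGF21 difference passed in 2 of the 15 fits that left out 1 library, with adjusted p from 0.0023 to 0.119. The FGF21 call thus depends on the samples and settings fitted. The antibody and FGF21 groups differed by 0.17 (95% interval −0.08 to 0.42, adjusted p = 0.518).

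Bckdhb, the beta subunit of the complex's E1 decarboxylase, read 11.95, 11.98, 11.88, 11.96 and 12.13 in controls 31 to 35, 11.77, 12.13, 12.14, 12.31 and 12.22 in FGF21 36 to 40, and 12.14, 12.29, 12.33, 12.53 and 12.17 in antibody mice 41 to 45. The antibody values lay above all controls by a narrow margin, with antibody 41 at 12.14 against control 35 at 12.13, and FGF21 36 was the lowest of all 15. The difference was 0.31 (SE 0.10, limma adjusted p = 0.0831) with the antibody and 0.14 (SE 0.10, adjusted p = 0.488) with FGF21. Without the 2 libraries the antibody difference passed, at 0.31 (adjusted p = 0.0259), and the FGF21 difference of 0.22 (adjusted p = 0.103) did not. The partners of Bckdhb and Dbt in the complex had small differences: Bckdha, the E1 alpha subunit, 0.08 with the antibody and −0.05 with FGF21, and Dld, the E3 subunit shared with the pyruvate and oxoglutarate complexes, 0.14 and −0.05. None of these 4 values passed.

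The regulators of the complex differed in sign. Ppm1k, the phosphatase that activates it, read 8.56, 8.69, 8.55, 8.70 and 8.78 in controls 31 to 35, 8.71, 9.25, 8.70, 9.52 and 9.17 in FGF21 36 to 40, and 9.14, 9.08, 9.19, 9.57 and 8.79 in antibody mice 41 to 45. The antibody group did not overlap the controls, although antibody 45 lay next to control 35; FGF21 36 and 38 lay within the control range. The differences were 0.50 (SE 0.16, limma adjusted p = 0.087) and 0.41 (SE 0.16, adjusted p = 0.149), and neither passed without the 2 libraries (0.51 for each, adjusted p = 0.0553 for each). Bckdk, the kinase that shuts the complex down, read 10.24, 10.32, 10.24, 9.57 and 10.11 in controls 31 to 35, 9.76, 9.85, 9.76, 9.87 and 9.76 in FGF21 36 to 40, and 9.80, 9.87, 9.92, 9.73 and 9.88 in antibody mice 41 to 45. Each of the 10 treated mice lay below 4 of the 5 controls, and control 34 lay below all of them. With all samples the differences were −0.25 (SE 0.11, adjusted p = 0.230) and −0.29 (SE 0.11, adjusted p = 0.146). Without control 34 and FGF21 36 Bckdk passed in both comparisons, at −0.39 (adjusted p = 0.00127) with the antibody and −0.42 (adjusted p = 0.000717) with FGF21. A second Bckdk probe set gave −0.27 and −0.37 with all samples (adjusted p = 0.192 and 0.0668 over all probe sets), and a second Ppm1k probe set 0.26 and 0.23 (adjusted p = 0.321 and 0.382).

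**Figure D3:**
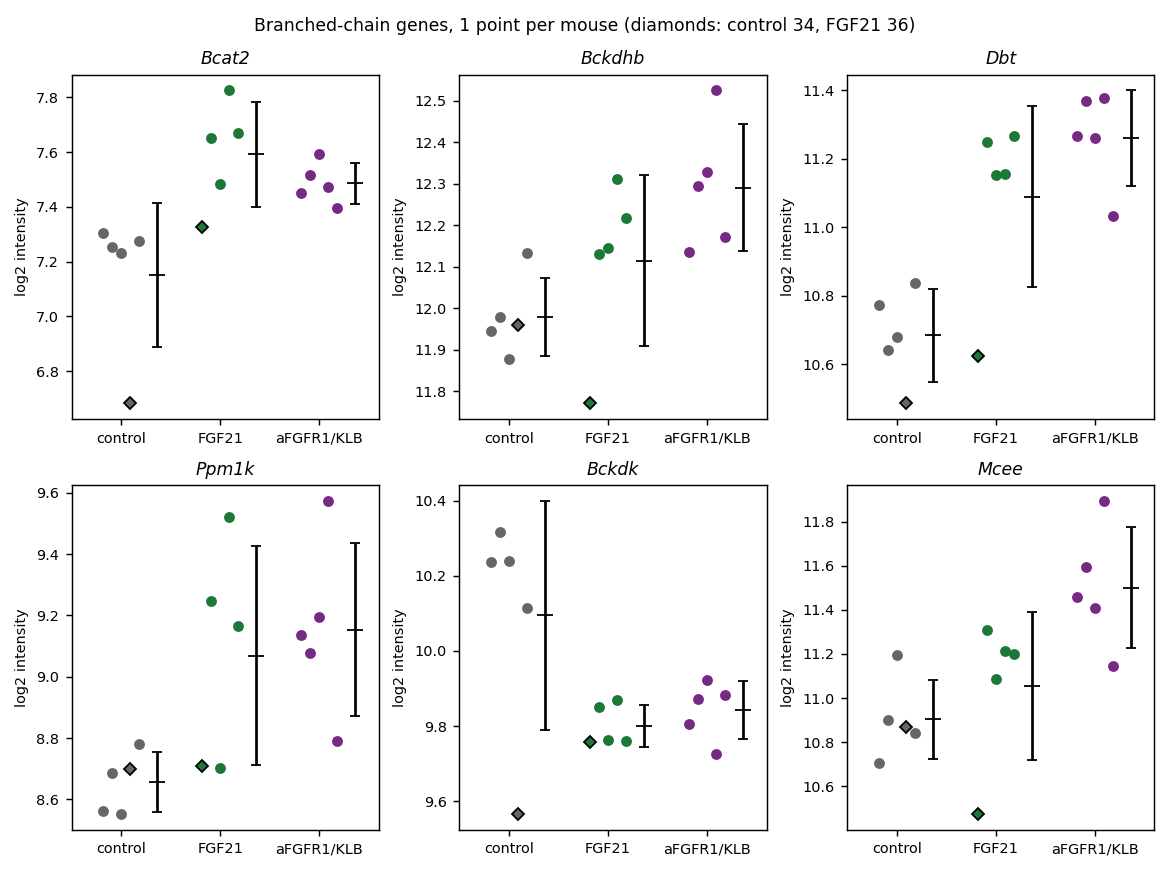
Log2 intensity (y axis) of 6 branched-chain genes by group, 1 point per mouse, with the mean and SD of 5 beside the points and control 34 and FGF21 36 as diamonds; the y axes do not start at 0. Antibody values lie above all controls for Bcat2, Bckdhb, Dbt and Ppm1k, and treated Bckdk values lie below every control but control 34, at 9.57.

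In the branches beyond the complex no gene passed. In the leucine branch, 0 of 4 genes passed in either comparison: Ivd, the isovaleryl-CoA dehydrogenase, was at 0.13 with the antibody and 0.03 with FGF21, and Mccc2, a subunit of methylcrotonyl-CoA carboxylase, at −0.02 and −0.17. In the valine and isoleucine branches, 0 of 6 passed. Acadsb, the short branched-chain acyl-CoA dehydrogenase, was at 0.01 and −0.22, and Hibadh, the hydroxyisobutyrate dehydrogenase, at 0.10 and −0.04. The lowest adjusted p (limma) among these 10 genes was 0.422, for Mccc2 with FGF21. The 95% intervals were wide next to the differences: for Auh, the hydratase of the leucine branch, they ran from −0.42 to 0.36 with the antibody and from −0.64 to 0.14 with FGF21. Other probe sets read higher with the antibody for Hibch, the hydroxyisobutyryl-CoA hydrolase, at 0.41 (unadjusted p = 0.0141, adjusted p = 0.134 over all probe sets), for Mccc1, the partner of Mccc2, at 0.28 (unadjusted p = 0.0573, adjusted p = 0.284), and for a dim Auh probe set, at 0.25 (unadjusted p = 0.0112, adjusted p = 0.119), and none passed.

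The propionyl-CoA route, used by valine and isoleucine carbon, held the other called gene. Mcee read 10.70, 10.90, 11.20, 10.87 and 10.84 in controls 31 to 35, 10.47, 11.31, 11.09, 11.21 and 11.20 in FGF21 36 to 40, and 11.46, 11.60, 11.41, 11.90 and 11.15 in antibody mice 41 to 45. The groups overlapped through antibody 45, which lay below control 33. The antibody mean of 11.50 ± 0.27 (SD, n = 5) against 10.90 ± 0.18 (n = 5) was a rise of 0.60 (SE 0.16, limma adjusted p = 0.0445). The call held in 4 of the 15 fits that left out 1 library (control 33, FGF21 36, FGF21 37 or antibody 45), with adjusted p up to 0.112 in the others. It was also lost with no filter on dim probe sets, with quantile normalisation repeated and with ribosomal centring. Without control 34 and FGF21 36 the rise was 0.59 (limma adjusted p = 0.0109). With FGF21 Mcee was at 0.15 (SE 0.16, adjusted p = 0.655). The direct difference between antibody and FGF21 was 0.45 (95% interval 0.10 to 0.79, adjusted p = 0.261), so a difference between the treatments did not pass after adjustment. Mcee's neighbours in the route were not called with all samples: Pcca and Pccb, the subunits of propionyl-CoA carboxylase, were at 0.25 and −0.06 with the antibody and 0.04 and −0.30 with FGF21, and Mmut, the mutase that follows Mcee, at 0.06 and −0.09. Pccb passed with FGF21 when the 2 libraries were left out, at −0.31 (adjusted p = 0.0183).

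Read from their brightest probe sets, the TCA cycle genes had fold changes that ran from −0.18 to 0.15 log2 for the antibody and from −0.20 to 0.03 for FGF21, with medians of 0.06 and −0.05, next to −0.02 in both for all genes tested. Citrate synthase, Cs, which starts the cycle, was at 0.04 (95% interval −0.10 to 0.18) with the antibody and −0.07 (−0.21 to 0.07) with FGF21. Ogdh, the oxoglutarate dehydrogenase, was at 0.06 and 0.03, Sdha at 0.07 and −0.04, and Idh3a, the catalytic subunit of the NAD-dependent isocitrate dehydrogenase, at 0.15 and 0.02. Idh3a did not overlap between antibody mice (14.12 to 14.29) and controls (14.00 to 14.11), with a limma adjusted p of 0.299. Of the other members with the smallest p in their step, Sucla2, a subunit of succinyl-CoA synthetase, was at −0.06 and −0.06, Sdhc, a membrane anchor of succinate dehydrogenase, at −0.03 and −0.13, and Mdh2, the mitochondrial malate dehydrogenase, at 0.08 and 0.01. None of these passed. Other probe sets of 2 of these genes read higher with the antibody. Beside the brightest, 3 Idh3a probe sets gave 0.39, 0.34 and 0.32 (limma unadjusted p = 0.0111, 0.0215 and 0.0147, adjusted p = 0.118, 0.169 and 0.137 over all probe sets) and −0.0027, −0.04 and −0.04 with FGF21, and a second Ogdh probe set gave 0.37 (unadjusted p = 0.0120, adjusted p = 0.124) and 0.13. Over all members, 9 of the 50 probe sets other than the brightest had an unadjusted p under 0.05 with the antibody, 6 higher and 3 lower, and 5 with FGF21, 1 higher and 4 lower, next to 18.9% and 19.2% of all probe sets tested.

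Idh1, the cytosolic NADP-dependent isocitrate dehydrogenase, read 12.88, 12.85, 12.78, 12.89 and 12.83 in controls 31 to 35, 12.68, 12.75, 12.86, 12.83 and 12.82 in FGF21 36 to 40, and 12.72, 12.59, 12.67, 12.71 and 12.66 in antibody mice 41 to 45. All antibody values were below all controls, and the FGF21 values ran across both ranges. The antibody difference was −0.18 (SE 0.05, limma adjusted p = 0.0571), and without the 2 libraries it passed at −0.17 (adjusted p = 0.0342). A second Idh1 probe set gave −0.01. Idh2, the mitochondrial NADP-dependent enzyme, was the 1 member whose antibody values (12.17 to 12.37) lay wholly above its FGF21 values (11.82 to 12.13), as for 2.39% of all genes, a difference of 0.26 (95% interval 0.03 to 0.50, adjusted p = 0.322). Against control it was at 0.13 and −0.14, and without the 2 libraries it passed with FGF21, at −0.20 (adjusted p = 0.0218).

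For Aco1 the call depended on the probe set. Aco1 is the cytosolic aconitase, which becomes an iron-regulated RNA-binding protein when it loses its iron-sulfur cluster. Its brightest probe set gave −0.11 (limma adjusted p = 0.603) with the antibody and −0.20 (adjusted p = 0.243) with FGF21. A second probe set, looked at after its values were seen, read 10.44, 10.51, 10.44, 10.41 and 10.47 in controls 31 to 35, 9.85, 10.09, 9.97, 10.09 and 10.11 in FGF21 36 to 40, and 10.00, 10.04, 10.12, 10.15 and 10.06 in antibody mice 41 to 45. On this probe set every treated mouse was below every control, and control 34 lay with its group. When each of the 22819 probe sets above the filter was tested by itself, it fell by 0.38 (SE 0.06, adjusted p = 0.00299) with the antibody and by 0.43 (SE 0.06, adjusted p = 0.00108) with FGF21, and without the 2 libraries by 0.39 and 0.40. Another, dim probe set was at −0.24 and −0.15 (adjusted p = 0.158 and 0.401), and without the 2 libraries at −0.30 (adjusted p = 0.0360) with the antibody and −0.22 (adjusted p = 0.119) with FGF21. Among the 96 probe sets of the 46 members above the filter, the former was the 1 that passed with all samples without being its gene's brightest.

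Of the 5 genes of pyruvate entry, 0 passed with all samples (limma; 1 was lower at an unadjusted p under 0.05 in each comparison), and 4 of 5 were below 0 with the antibody and 5 of 5 with FGF21. Pcx, the carboxylase that refills oxaloacetate, read 12.10, 12.13, 12.18, 11.77 and 12.04 in controls 31 to 35, 11.74, 11.97, 11.92, 12.03 and 12.08 in FGF21 36 to 40, and 11.85, 11.75, 11.82, 11.82 and 11.76 in antibody mice 41 to 45. The antibody values were below 4 of 5 controls, with control 34 among them. The antibody difference was −0.24 (SE 0.08, limma adjusted p = 0.0993), and −0.31 (adjusted p = 0.00206) without control 34 and FGF21 36; with FGF21 it was −0.10 (adjusted p = 0.571) and −0.11 (adjusted p = 0.180). Of the other 4 Pcx probe sets, a bright set (mean 11.89 log2) gave −0.18 with the antibody. The dim sets, with means of 6.48 to 7.25 log2, gave −0.08 to 0.10. None of the 4 was called.

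Pyruvate dehydrogenase links glycolysis to the cycle. Its E1 alpha subunit Pdha1 was at −0.08 with the antibody and −0.13 with FGF21, and its E1 beta subunit Pdhb at −0.12 (limma adjusted p = 0.484) and −0.20 (adjusted p = 0.213). Pdhb read 13.73 to 13.79 in the 5 antibody mice, below the 4 controls other than 34 (13.86 to 14.01) and above control 34 (13.65). Without the 2 libraries Pdhb passed in both comparisons, at −0.18 in each (adjusted p = 0.0416 and 0.0456). Dlat, the E2 subunit, was at −0.17 and −0.25 with all samples, and passed for the antibody without the 2 libraries, at −0.24 (adjusted p = 0.0364). A second Dlat probe set gave −0.15 and −0.24 with all samples, and another, dimmer, gave 0.10 and −0.07, none called. Pdhx, the E3-binding protein, was at 0.05 and −0.07.

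**Figure D4:**
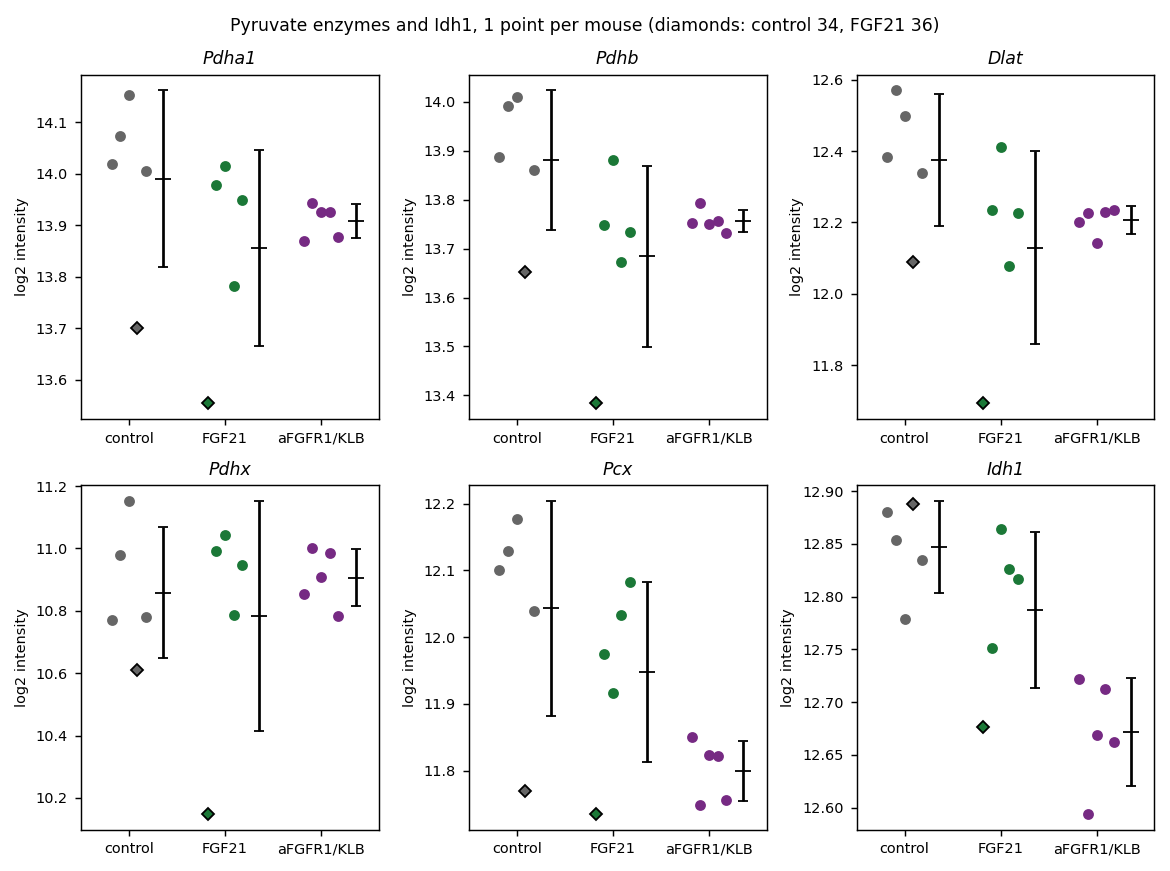
Log2 intensity (y axis) of the 5 pyruvate genes and Idh1 by group, 1 point per mouse, with the mean and SD of 5 beside the points and control 34 and FGF21 36 as diamonds; the y axes do not start at 0. Antibody points for Pcx (11.75 to 11.85) lie below the controls other than 34, and for Idh1 (12.59 to 12.72) below all 5 controls.

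To set branched-chain enzymes against the cycle they feed, the members' deviations from the control mean were averaged per mouse. The branched-chain mean was 0.14 ± 0.08 (SD, n = 5) with the antibody and 0.02 ± 0.19 with FGF21, and the TCA mean 0.04 ± 0.03 and −0.05 ± 0.14. The branched-chain mean minus the TCA mean was 0.11 ± 0.05 with the antibody (0.02 to 0.15) and 0.07 ± 0.05 with FGF21 (−0.01 to 0.11), next to 0 ± 0.08 in controls (−0.10 to 0.11). Control 33, at 0.11, lay within the range of both treated groups, so the groups overlapped. The branched-chain mean counts dim Bcat1, at 0.80 with FGF21, and the inhibiting kinase Bckdk like any other member. With the filter at the 60th percentile, which leaves out Bcat1, the difference was 0.10 for the antibody and 0.037 for FGF21. The pyruvate mean was −0.11 ± 0.03 with the antibody, with all 5 mice between −0.15 and −0.09, and −0.15 ± 0.22 with FGF21, where FGF21 36 was at −0.53; controls ran from −0.27 to 0.17. The median fold change was 0.09 and −0.05 over the branched-chain list and −0.12 and −0.13 over the pyruvate list, for antibody and FGF21 in turn. By count, 31 of 46 members were above 0 with the antibody (67.4%, against 45.1% of all genes) and 14 of 46 with FGF21 (30.4%, against 45.5%). Without the 2 libraries these were 24 of 46 (52.2%, against 45.2%) and 16 of 46 (34.8%, against 45.9%). With the macrophage mean as a covariate they were 31 of 46 (67.4%, against 45.1%) and 25 of 46 (54.3%, against 45.3%), the FGF21 median moving from −0.06 to 0.03. With ribosomal centring they were 39 of 46 (84.8%, against 65.2%) and 14 of 46 (30.4%, against 47.2%). The 2 comparisons with control share the same control mice.

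Antibody and FGF21 were then compared directly. None of the 46 members passed (limma; 0.372% of all genes did), 3 had an unadjusted p under 0.05 (Mcee and Idh2 higher with the antibody, Idh1 lower; 7.42% and 6.07% of all genes), and 41 of 46 were above 0, against 53.7% of all genes. The median over members was 0.12, next to 0.01 over all genes. Without control 34 and FGF21 36, again no member passed (1.83% of all genes did), 32 of 46 were above 0 (69.6%, against 50.5% of all genes) and the median was 0.03. FGF21 36 was the lowest of its group in 43 members. For the 3 called genes the intervals of the difference were −0.08 to 0.42 for Dbt, 0.10 to 0.79 for Mcee and −0.36 to 0.14 for Bcat2.

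Genes around the pathway were read from lists of related genes, which were chosen with earlier results of these data known. The share of a list that was called therefore describes that list and is no test of it. Among transporters, regulators and shared beta-oxidation steps of branched-chain metabolism, 3 of 14 tested genes, Klf15, Slc3a2 and Slc43a2, rose in each comparison with control (21.4%, against 5.18% of all genes called with the antibody and 6.32% with FGF21), and the list's median was 0.12 with the antibody and 0.04 with FGF21. Klf15, a transcription factor known to drive branched-chain catabolic genes, rose by 1.17 with the antibody (limma adjusted p = 0.00117) and by 1.17 with FGF21 (adjusted p = 0.000868). Slc3a2, the heavy chain of the leucine exchanger, rose by 0.62 (adjusted p = 0.00265) and 0.73 (adjusted p = 0.000707). Slc43a2, a branched-chain amino acid carrier, rose by 0.70 (adjusted p = 0.00289) and 0.41 (adjusted p = 0.0392). These changes held their size without control 34 and FGF21 36, at 1.09 and 1.17 for Klf15, 0.69 and 0.79 for Slc3a2, and 0.72 and 0.40 for Slc43a2. Then 4 of 14 passed in each comparison (28.6%, against 12.4% and 16.2% of all genes), with 1 gene added in each: the amino acid carrier Slc7a8 with the antibody, at 0.54 (adjusted p = 0.0108), and Slc7a5, the light chain that pairs with Slc3a2, with FGF21, at 0.37 (adjusted p = 0.0208).

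Of 9 tested partners of the TCA cycle, 1 (11.1%) rose in each comparison, and the list's medians were 0.06 and −0.05. It was Got1, the cytosolic aspartate aminotransferase of the malate-aspartate shuttle, at 1.23 (limma adjusted p = 0.000331) with the antibody and 0.99 (adjusted p = 0.000868) with FGF21. Among 10 genes for cofactors of these enzymes, Lias, which makes the lipoate that Dbt, Dlat and Dlst carry, fell by 0.25 with the antibody (adjusted p = 0.0406), the list's median being 0.04 and −0.12; with FGF21 it was at −0.13 (adjusted p = 0.312). Lias was 1 of 10 (10.0%) with the antibody, and with FGF21 0 of 10 passed (limma). Without control 34 and FGF21 36, 2 of 10 passed with the antibody (Lias lower, the thiamine carrier Slc19a2 higher) and 3 of 10 with FGF21, all lower (20% and 30%, against 12.4% and 16.2% of all genes): Lipt2 at −0.24 (adjusted p = 0.0230), Hlcs at −0.36 (adjusted p = 0.0369) and Mmab at −0.54 (adjusted p = 0.00155). Of 15 genes that supply pyruvate or control its use, 0 passed in either comparison (limma; at an unadjusted p under 0.05, 0 with the antibody and 2 with FGF21, 1 in each direction), with medians of 0.04 and 0.01. Without the 2 libraries 1 of 15 passed in each, Me3, the mitochondrial NADP-dependent malic enzyme, at −0.59 (adjusted p = 0.0124) and −0.71 (adjusted p = 0.00472). Pdk4, the kinase that inhibits pyruvate dehydrogenase, was at 0.15 (adjusted p = 0.519) and 0.05 (adjusted p = 0.869). Ppargc1a, a coactivator of mitochondrial genes, rose by 0.60 with the antibody (adjusted p = 0.0486) and was at 0.57 (adjusted p = 0.0559) with FGF21, and Ucp1, the uncoupling protein of brown fat, rose by 0.19 (adjusted p = 0.0494) and was at 0.10 (adjusted p = 0.290).

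The scale of the arrays bears on small differences. When arrays were centred on 27 ribosomal protein genes in place of the deposited scale, the median of all genes moved from −0.02 to 0.06 for the antibody and to −0.01 for FGF21. Of all calls, 75.9% were then higher for the antibody (51.9% on the deposited scale) and 65.1% for FGF21 (41.8%), and no member passed; Dbt was at 0.65 (limma adjusted p = 0.0946), Mcee at 0.68 (adjusted p = 0.141) and Bcat2 with FGF21 at 0.45 (adjusted p = 0.298). The signs of these 3 differences were the same on both scales. The ribosomal mean was highest in control 34 (12.35 log2) and FGF21 36 (12.23), against 11.84 to 12.13 in the other mice. Centring thus lowered the values of those 2 libraries further, and its part in the lost calls was not tested. Under this centring 8 of the 46 members changed sign with the antibody, none of them called: Mccc2, Auh, Acad8, Hsd17b10, Pccb, Sucla2, Sdhc and Mdh1, all at most 0.06 below 0 on the deposited scale. With FGF21 0 of 46 changed sign.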

How the data were processed

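Expression was measured on Affymetrix arrays in 15 brown adipose tissue samples, 5 per group, described by the labels as biological replicates. The authors deposited a normalised linear intensity for each of 45101 probe sets, made with RMA per the submitters' processing notes; version and settings are not given in the sources used here. Sample medians ran from 50.6 to 52.1 and values from 5.58 to 34652; the number of arrays limits the precision. GEO's platform table gave 1 symbol for 34958 probe sets, several for 932 and none for 9211. The deposited intensities were turned to log2 with no pseudocount, and each gene was read from its brightest probe set (1 member, Mmut, was matched through a RefSeq synonym). Genes brighter than the 40th percentile of the averages of all probe sets, 13174 of 18194, were fitted in limma 3.58.1 (R 4.3.3) as 3 groups with no covariate and 12 residual degrees of freedom, Benjamini-Hochberg adjusted within each comparison; "passed" and "called" mean adjusted p under 0.05. The code was tested on simulated data.

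Values in every sample are given for members that were called, or that changed by at least 0.3 log2 with no overlap of treated and control values. The member with the smallest p in each step, and 6 pace-setting enzymes, are given by fold change. Bcat1, Idh2, Dlat, the per-sample values of Bckdk, Idh1 and Pcx and the probe sets of Aco1 were chosen after their values were seen. The members and lists were chosen with earlier results of these data known. RefSeq promoters (GRCm38.p6) were found for 42 of 46 members. Alternatives covered the pseudocount, filter, probe choice, scaling, samples fitted, variance prior, sample weights, a macrophage covariate and leaving out libraries.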

Additional observations from a re-analysis of the deposited data

Results flagged for a closer look

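A Dixon test at the 95% level marked a sample as far from the other 4 of its group in 21 of 90 combinations examined. Each combination paired a group with 1 of 26 members or with a list mean. Chance marks about 1 in 20 independent combinations. These were not independent, since the genes share libraries and the list means are built from the members, so the count is a description. All values below are log2.

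Control 34 was marked as the lowest of the controls for Bcat2 (6.68), Bckdk (9.57), Mccc2 (10.87), Hibadh (13.06), Pccb (10.27), Cs (13.94), Idh2 (11.68), Ogdh (12.41) and Sdha (13.38). It was also marked for the mean deviation of the branched-chain genes (−0.27) and of the TCA genes (−0.17). FGF21 36 was marked as the lowest of its group for Dbt (10.63), Hibadh (12.87), Mcee (10.47), Cs (13.76), Idh3a (13.76) and Sdhc (11.92), and for the branched-chain mean (−0.32) and the TCA mean (−0.31). These 2 libraries had the highest macrophage marker sums of the series, 42821 and 52336. The other marks were control 33 for Aco1 (11.49, the lowest) and antibody mouse 44 for Cs (14.22, the highest).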

How the results depend on the processing

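No paired analysis was possible because the replicate numbers do not repeat between the groups. Counts below are of genes called at adjusted p under 0.05; the cause of each change was not tested. For the antibody against control, with 682 genes, 2 branched-chain members and 0 TCA and pyruvate members called, all genes called were 162 with ribosomal centring, 2307 with sample quality weights, 1720 with the macrophage covariate and 1631 without control 34 and FGF21 36 together. Branched-chain members were 1 with no filter, 1 with quantile normalisation repeated, 0 with ribosomal centring, 7 with weights, 5 with the covariate and 5 without both libraries. TCA and pyruvate members were 1 each with log2(value + 16), the filter at the 60th percentile, the mean of all probe sets and the intensity trend with robust prior, 2 with weights, 2 with the covariate and 4 without both libraries.

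For FGF21 against control (833, 1 and 0), all genes called were 195 with ribosomal centring, 322 with only the 10 samples of both groups, 2855 with weights, 1356 with the covariate and 2138 without both libraries. Branched-chain members were 2 each with log2(value + 16), the 60th percentile filter, the mean of probe sets, the trend and the covariate, 0 each with quantile normalisation, ribosomal centring and only 10 samples, 8 with weights and 4 without both libraries. TCA and pyruvate members were 1 with the mean of probe sets, 2 with weights and 2 without both libraries. For antibody against FGF21 (49, 0 and 0), all genes called were 77 with the 60th percentile filter, 30 with quantile normalisation, 8 with ribosomal centring, 87 with only 10 samples, 81 with the trend, 832 with weights, 140 with the covariate and 241 without both libraries, and TCA and pyruvate members were 3 with weights.

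Leaving out 1 library at a time gave, for the antibody against control, 336 (without antibody 42) to 1140 genes (without control 34), 1 to 3 branched-chain and 0 to 1 TCA and pyruvate members, with 3 and 1 without FGF21 36. For FGF21 against control it gave 463 (without control 32) to 2097 genes, 0 to 6 and 0 to 2 members, the highest of each without control 34, where 2097 genes and 6 branched-chain members were called. For antibody against FGF21 it gave 10 (without FGF21 40) to 251 genes (without control 34) and no members. The branched-chain minus TCA difference stayed between 0.08 and 0.13 for the antibody and between 0.05 and 0.10 for FGF21 when 1 library was left out. Without control 34 and FGF21 36 together it was 0.08 for the antibody and 0.0707 for FGF21. Under the remaining settings it was as low as 0.09 for the antibody (mean of probe sets). For FGF21 it was 0.037 with the 60th percentile filter and 0.0496 with the mean of probe sets.

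Over all 46 members, the sign changed when any 1 library was left out for 11 with the antibody and 19 with FGF21, none of them called. Among the 26 members followed through every setting, 34 single values changed sign, none of them called in the full data. With all samples these were, for the antibody, Acadsb −0.036 and Ogdh −0.048 with weights, Mccc2 0.024 with the mean of probe sets, and with ribosomal centring Mccc2 0.057, Pccb 0.0152, Sdhc 0.044 and Sucla2 0.0185; for FGF21, Ogdh −0.055 with weights, Idh3a −0.017 with the mean of probe sets, and Hibadh 0.033 and Sdha 0.0515 with the covariate. Without both libraries Acadsb was at −0.12 and Ogdh at −0.063 for the antibody, and Ogdh at −0.0385 for FGF21. Leaving out 1 library, the ranges among these 26 that crossed 0 were, for the antibody, Acadsb −0.12 to 0.11, Mccc2 −0.091 to 0.014, Ogdh −0.063 to 0.11 and Sdhc −0.099 to 0.007, and for FGF21, Hibadh −0.0901 to 0.0436, Idh3a −0.018 to 0.094, Ivd −0.041 to 0.12, Mdh2 −0.0085 to 0.047, Ogdh −0.093 to 0.086 and Sdha −0.099 to 0.0465.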
